A study of Mus musculus with 8 samples.

Results

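The intermediate filament genes examined here are 8 keratins (Krt5, Krt7, Krt8, Krt14, Krt18, Krt19, Krt20 and Krt80) and vimentin (Vim), 9 genes chosen by name from 36528 listed in each library. Poly(A) RNA of primary mouse mesothelial cells from the omentum was sequenced. There were 4 WT libraries and 4 libraries of the genotype BAP1 KO, in which the gene of a nuclear deubiquitinase and mesothelioma tumour suppressor is knocked out, and all other handling given in the labels was shared. The labels state neither the strain, age and sex of the mice, nor the way the gene was deleted, nor how the cells were purified or cultured, nor whether each library is a separate animal or culture. The p-values therefore measure the spread among the libraries, and that spread may be technical.

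Keratins form filaments from pairs, with each filament needing an acidic type I chain and a basic type II chain. Krt8 (type II) with Krt18 (type I) is the typical pair of simple epithelia, often joined by Krt7 (type II) and Krt19 (type I), whereas Krt5 with Krt14 is the pair of the basal layer of stratified epithelia. Vimentin, a type III protein, forms filaments by itself and is the usual intermediate filament of macrophages and of fibroblasts and other mesenchymal cells. Mesothelial cells are known for holding keratin and vimentin filaments side by side.

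The type II genes and Krt18 lie in 1 cluster on chromosome 15 of GRCm38, and the other type I genes lie in a cluster on chromosome 11. Krt8 (Entrez 16691, 101996711 to 102004342, minus strand) and Krt18 (Entrez 16668, 102028216 to 102032026, plus strand) are neighbours whose starts face each other across a gap of 23.9 kb. RefSeq promoter windows matched 7 of the 9 genes, with none for Krt19 and Krt80. The window of Krt14 (chr11:100206031-100206280) lies within the span of its gene, 100203162 to 100207510 on the minus strand, and not before it. The stretches below are shown because these 3 keratins were all lower in BAP1 KO. Krt80 was lower too, but without a window it was not searched. They come from the 250 bases before the RefSeq start (GRCm38.p6) and are limited to bases outside any exon of GENCODE vM21. They are written 5′ to 3′ on the gene's strand, and capitals mark the letters of the motifs searched.
Krt8, chr15:102004483-102004592, minus strand: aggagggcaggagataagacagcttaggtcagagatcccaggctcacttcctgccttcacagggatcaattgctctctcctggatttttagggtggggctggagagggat
Krt18, chr15:102027966-102028179, plus strand: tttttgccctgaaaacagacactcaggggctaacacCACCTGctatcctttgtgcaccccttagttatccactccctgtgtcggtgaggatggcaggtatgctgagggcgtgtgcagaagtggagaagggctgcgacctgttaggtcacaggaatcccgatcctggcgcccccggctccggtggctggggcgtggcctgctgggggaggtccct
Krt20, chr11:99438154-99438403, minus strand: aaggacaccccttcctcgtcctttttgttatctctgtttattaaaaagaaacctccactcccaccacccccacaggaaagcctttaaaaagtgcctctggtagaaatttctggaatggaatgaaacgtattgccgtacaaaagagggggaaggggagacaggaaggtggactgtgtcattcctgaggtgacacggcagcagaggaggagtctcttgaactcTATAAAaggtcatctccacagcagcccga

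The motifs searched, on both strands of the full 250 bases, were the E-box CACCTG, the GC box GGGCGG, the TATA box TATAAA, the AP-1 site TGANTCA and the grainyhead site AACNGGTT. The E-box letters are held by 17.2% of all 32851 promoter windows, the GC box by 32.7%, the TATA box by 12.4%, the AP-1 site by 6.7% and the grainyhead site by 1.8%. Krt18 and Krt8 each held 1 E-box, that of Krt18 from 214 to 209 bases before the start and that of Krt8 from 111 to 106 bases before it, while Krt5 held 1 from 128 to 123 bases before its start. Krt20 held a TATA box from 29 to 24 bases before its start, and Vim one from 32 to 27 bases before it. The window of Krt7, the abundant keratin that was higher in BAP1 KO, held 4 GC boxes and 1 E-box and had 66.0% G and C. That of Krt14, also higher, held no match and had 49.6%. Among the genes that were lower, Krt8 had 58.0%, Krt18 60.4%, Krt20 48.0% and Vim 58.4%. The median over all windows was 52.4%, and a link between these letters and the direction of change was not tested. GENCODE gives 140 of the 250 bases of the Krt8 window as exon, its E-box included, and 205 of the Krt7 window, 36 of the Krt18 window and all 250 of the Vim window. A match is a description of the letters and does not show binding.

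Total counts were 67.1 to 84.9 M per library. Bap1 itself lay between 62.6 and 64.2 CPM in the WT libraries and between 52.0 and 54.0 CPM in the BAP1 KO libraries, where CPM is a gene's count for each M of a library's TMM-scaled total; whether the deleted part was lost cannot be read from counts per gene. Of all 16929 genes tested, 61.1% passed the test (edgeR's quasi-likelihood test, Benjamini-Hochberg adjusted p below 0.05), 29.0% higher and 32.1% lower in BAP1 KO, so a change in a single gene is common in this comparison. Of 13 mesothelial markers, Upk3b (462 CPM in WT) and Pdpn (241 CPM) were the most abundant in WT, while Calb2, the gene of calretinin, had 0 to 2 counts per library. Lyz2, a macrophage marker, stood at 8388 CPM and Col1a1, a collagen chain of fibroblasts, at 8351 CPM in WT. In bulk RNA of this kind, fewer cells of a type and less RNA per cell cannot be told apart.

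Among the 9 genes, Vim, Krt8, Krt18, Krt20 and Krt80 fell in BAP1 KO, Krt7 and Krt14 rose, Krt19 did not pass the test, and Krt5 had too few counts to be tested. That is 5 lower and 2 higher of the 8 tested, beside 32.1% and 29.0% of all genes. The 4 values of a genotype did not overlap the other 4 in 7 of the 8, beside 53.8% of all genes. Krt14 counts among the 2 higher and the 7, though it passed the filter on low counts only through its BAP1 KO libraries. The falls of Krt8, Krt18 and Krt80 were each by over 1 on the log2 scale, while that of Vim was small against a far higher level. The plot of each gene by library shows the same split.

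**Figure D1:**
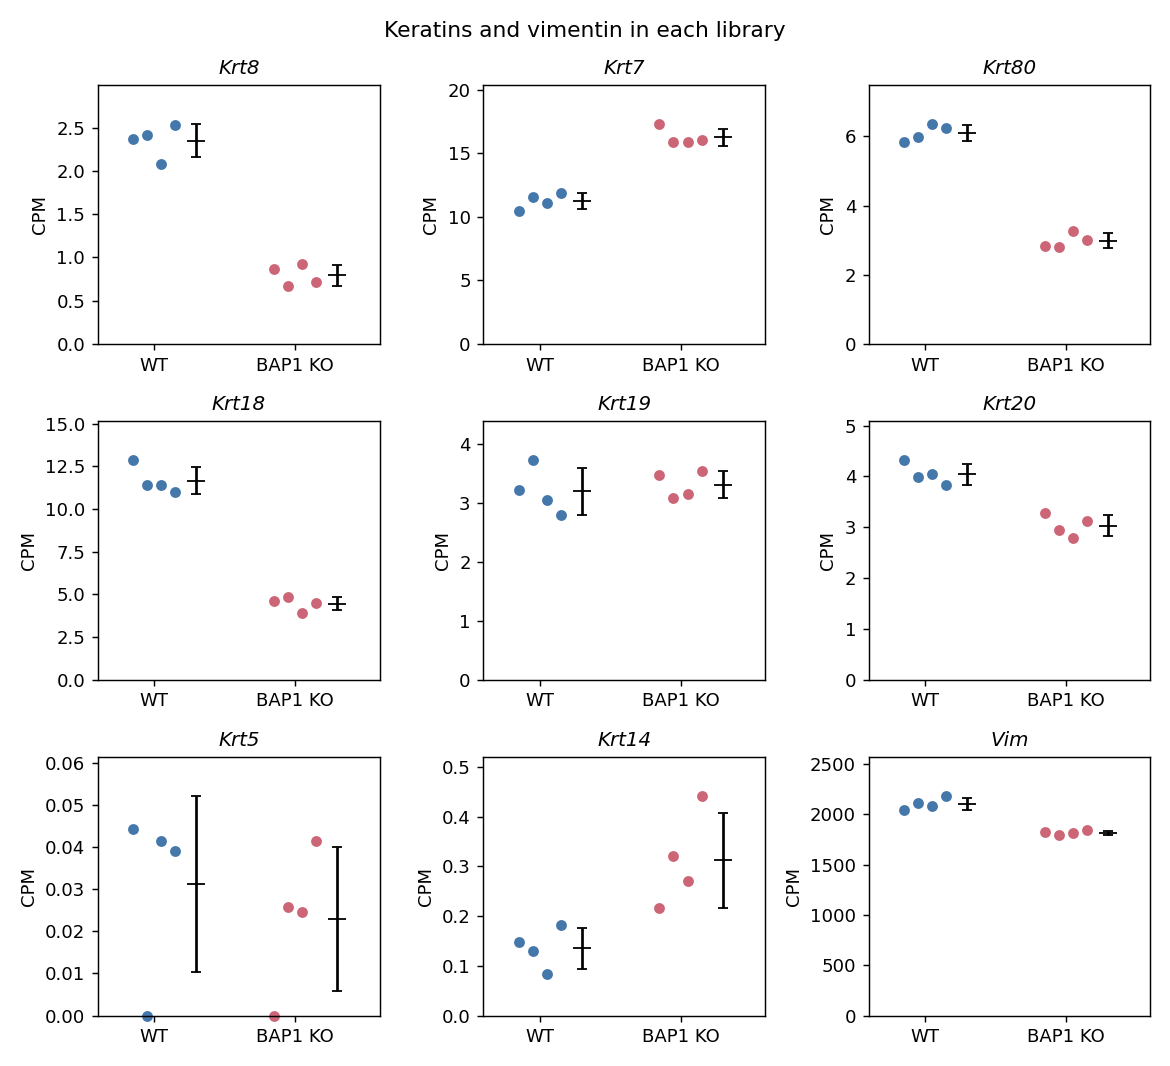
Level of each gene (CPM, linear axis from 0, a separate scale per panel) in the 4 WT and 4 BAP1 KO libraries, with points for libraries and the mean with its SD beside them. The genotypes separate in every panel except Krt19 and Krt5, with Krt7 and Krt14 higher and the others lower in BAP1 KO.

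Vimentin was the abundant filament gene. On the deposited scale per length, nRPKM (RPKM adjusted by a size factor of the authors), it stood at 1133 ± 31.9 in WT (SD, n = 4) and ranked 20 of 26313 genes with a count. The most abundant keratin in WT was Krt18, at 6.31 ± 0.44 nRPKM and rank 7584. The order in WT went on with Krt7 (5.93 ± 0.32), Krt19 (2.29 ± 0.28), Krt20 (2.07 ± 0.10), Krt80 (1.75 ± 0.067) and Krt8 (1.28 ± 0.10), and ended with Krt14 (0.076 ± 0.023) and Krt5 (0.014 ± 0.0094). In this order the library ranges of Krt18 and Krt7 overlapped, as did those of Krt19 and Krt20, and the other neighbours did not overlap.

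In BAP1 KO the order among the same 8 keratins changed at the top. Krt7 led with 8.65 ± 0.38 nRPKM (SD, n = 4), and Krt18 came next at 2.44 ± 0.22, where its range overlapped that of Krt19 (2.39 ± 0.17). Krt20 (1.56 ± 0.11), Krt80 (0.86 ± 0.062), Krt8 (0.44 ± 0.067), Krt14 (0.18 ± 0.054) and Krt5 (0.010 ± 0.0078) followed without overlap. Krt23, a keratin outside these 8, stood at 4.40 ± 0.23 nRPKM in WT, between Krt7 and Krt19, and at 2.83 ± 0.080 nRPKM in BAP1 KO, above Krt18 (SD, n = 4). Vim stayed first at 987 ± 12.1 nRPKM and rank 24.

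Krt8 and Krt18, the simple epithelial pair, fell by the most of the 9. Krt18 stood at 12.8, 11.4, 11.4 and 10.99 CPM in the WT libraries and at 4.64, 4.85, 3.90 and 4.48 CPM in the BAP1 KO libraries. Every BAP1 KO library was far below every WT library. The log2 fold change, BAP1 KO minus WT, was -1.38 ± 0.07 (SE; edgeR adjusted p = 9.6e-18), and BAP1 KO held 38.3% of the WT level. Krt8 stood at 2.37, 2.41, 2.08 and 2.53 CPM in WT and at 0.87, 0.67, 0.92 and 0.72 CPM in BAP1 KO. These groups did not overlap either, on 52 to 205 counts per library. The log2 fold change of Krt8 was -1.56 ± 0.13 (SE; edgeR adjusted p = 3.4e-12), which left 33.8% of the WT level. Permuting the 8 library values of either gene gave an exact two-sided p = 0.029, and no smaller p is possible with 4 libraries against 4.

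The pair fell by amounts that could not be told apart. The ratio of Krt18 to Krt8 on nRPKM was 5.37, 4.68, 5.41 and 4.29 in WT and 5.29, 7.19, 4.19 and 6.18 in BAP1 KO, and the groups overlapped. The log2 ratio of their counts differed by 0.19 between the genotypes (exact two-sided permutation p = 0.37). Leaving out 1 library at a time gave differences of 0.069 to 0.33, with exact permutation p from 0.11 to 0.69.

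The level of Krt8 carries a limit from the counting. Of the 1909 windows of 50 bases in its longest coding transcript, 29.7% occur also in transcripts of other genes, chiefly the pseudogene Krt8-ps. A read from a window shared with another locus would not align uniquely. The search covered both strands, so the share also holds windows of the opposite-strand transcript Gm36026 at the same locus. Reads of those can align uniquely. If all shared windows were lost, dividing by the unshared share of 70.3% would give a WT level of 1.83 nRPKM in place of 1.28. Krt18 would still stand 3.45 times higher. Such windows made up 0.7% in Krt18, 0.2% in Krt7 and 0.0% in Krt19, Krt20 and Vim. They made up 3.9% in Krt80, 14.4% in Krt14 (shared with Krt16 and Krt17) and 12.2% in Krt5. In Krt80 and Krt5 they include windows of the opposite-strand transcripts Gm35853 and Gm44323. The exons of Krt8 also overlap those of Gm36026 on the opposite strand over 101 bases, and those of Krt7, Krt80 and Krt5 overlap an opposite-strand transcript over 77, 263 and 129 bases. The kit does not mark the strand, so reads of such stretches cannot be assigned to 1 gene.

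Krt7, the type II partner found in many ductal and serosal epithelia, moved the other way. It stood at 10.5, 11.6, 11.1 and 11.8 CPM in WT and at 17.3, 15.9, 15.9 and 16.0 CPM in BAP1 KO. All BAP1 KO libraries were above all WT libraries, on 707 to 1297 counts. The rise was 0.53 ± 0.05 on the log2 scale (SE; edgeR adjusted p = 3.9e-11), to 144.7% of the WT level. Krt19, a type I keratin without a tail domain that can pair with Krt7 or Krt8, stood at 3.21, 3.72, 3.05 and 2.79 CPM in WT and at 3.47, 3.08, 3.14 and 3.54 CPM in BAP1 KO. The BAP1 KO values lay within the WT range. Its log2 fold change was 0.05 ± 0.09 (SE; edgeR adjusted p = 0.69), and it ran from -0.017 to 0.13 when 1 library was left out.

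Krt80 and Krt20, keratins best known from differentiated epithelia, both fell. Krt80 (type II) stood at 5.84, 5.99, 6.34 and 6.24 CPM in WT and at 2.83, 2.81, 3.28 and 3.01 CPM in BAP1 KO. The groups were far apart, and BAP1 KO held 48.8% of the WT level, with a log2 fold change of -1.03 ± 0.07 (SE; edgeR adjusted p = 2e-13). Krt20 (type I), typical of gut and urothelial lining, stood at 4.32, 3.99, 4.04 and 3.83 CPM in WT and at 3.28, 2.94, 2.80 and 3.12 CPM in BAP1 KO. The gap between the groups was narrower, with a log2 fold change of -0.42 ± 0.08 (SE; edgeR adjusted p = 4.4e-05).

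The basal pair Krt5 and Krt14 was near the limit of detection. Krt5 had 0 to 3 counts in every library of either genotype, at or under the 3 counts below which no fold is given, so its presence was not detectable above background at this depth. Krt14 had 10, 11, 6 and 14 counts in WT and 15, 25, 22 and 32 counts in BAP1 KO. The genotypes did not overlap, and the log2 fold change was 1.19 ± 0.32 (SE; edgeR adjusted p = 0.0016), at 0.14 and 0.31 CPM. Only 2 WT libraries but all 4 BAP1 KO libraries reached the 0.13 CPM that the filter on low counts asks for. Krt14 was therefore tested only because it was higher in BAP1 KO.

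Vim fell by a small amount in every BAP1 KO library. It stood at 2043, 2110, 2082 and 2182 CPM in WT and at 1822, 1796, 1812 and 1846 CPM in BAP1 KO. The genotypes did not overlap, and BAP1 KO held 86.4% of the WT level, with a log2 fold change of -0.21 ± 0.02 (SE; edgeR adjusted p = 1.5e-10). The spread between libraries, a coefficient of variation of 2.79% in WT and 1.15% in BAP1 KO, was larger than the 0.25% and 0.27% that counting alone gives. For Krt8 the spread was 8.10% and 15.1%, near its counting error of 7.50% and 12.9%.

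Added up per length, the type I sum of the 8 keratins was lower and the type II sum higher in BAP1 KO. The genes of a type did not move together. Of type II, Krt7 rose while Krt8 and Krt80 fell. Of type I, Krt18 and Krt20 fell, Krt14 rose and Krt19 did not pass. The largest changes within the sums were those of Krt7 (5.93 to 8.65 nRPKM) and Krt18 (6.31 to 2.44 nRPKM). The 4 type I genes summed to 11.5, 10.9, 10.5 and 10.02 nRPKM in WT and to 6.88, 6.56, 5.99 and 6.85 nRPKM in BAP1 KO. The 4 type II genes summed to 8.50, 9.14, 8.83 and 9.44 nRPKM in WT and to 10.5, 9.63, 9.91 and 9.78 nRPKM in BAP1 KO. The ratio of type I to type II was 1.06 to 1.36 in WT and 0.60 to 0.70 in BAP1 KO. Its place above or below 1 rests on the choice of genes. With Krt10 and Krt23, the other 2 keratins with more than 20 counts in a library and both type I, the ratio was 1.63 to 1.92 in WT and 0.94 to 1.05 in BAP1 KO. It was lower in every BAP1 KO library either way, and the sums were not tested.

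**Figure D2:**
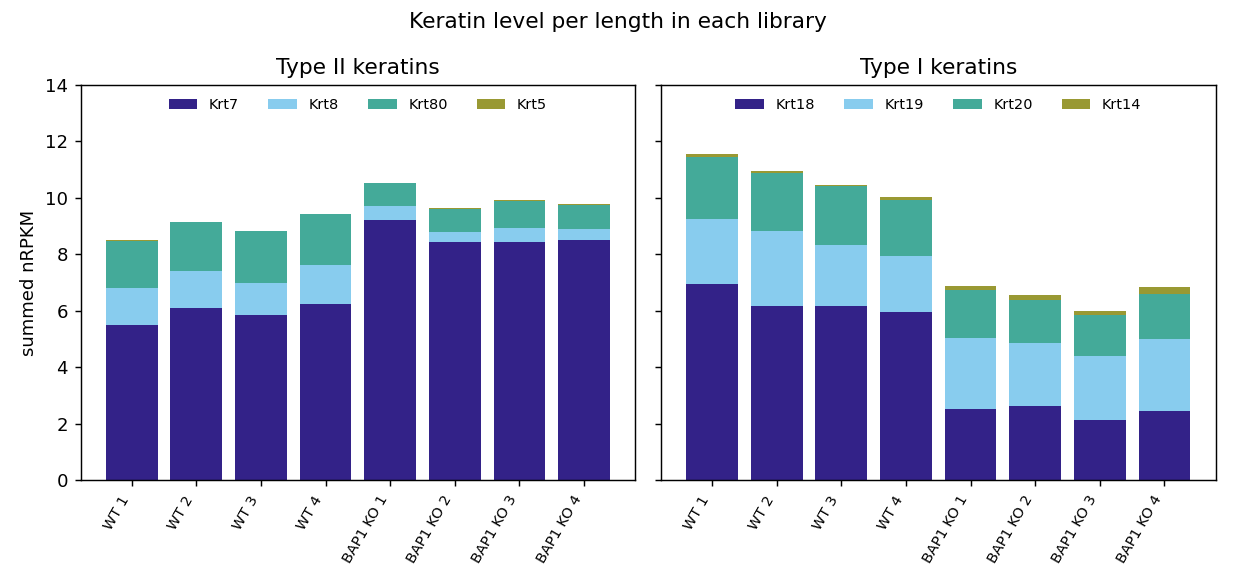
Summed nRPKM of the type II keratins (left) and the type I keratins (right) in each of the 8 libraries, with 1 colour per gene and bars from 0. The type II bars are mostly Krt7 and are taller in BAP1 KO, while the type I bars shrink with Krt18 from 10.02 to 11.5 nRPKM in WT to 5.99 to 6.88 nRPKM in BAP1 KO.

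Krt18 and Krt7 had about the same share of the total of the 8 keratins in WT, and Krt7 led in BAP1 KO. Krt18 made up 30.6 to 34.7% of the summed keratin nRPKM in WT and 13.4 to 16.3% in BAP1 KO. Krt7 made up 27.5 to 32.1% in WT and 51.1 to 53.1% in BAP1 KO. The total of the 8 keratins was 19.3 to 20.1 nRPKM in WT and 15.9 to 17.4 nRPKM in BAP1 KO. Because Vim fell as well, it stood 54.9 to 60.4 times above the keratin total in WT and 57.1 to 61.8 times above it in BAP1 KO, and these ranges overlapped. Against Vim, the sum of Krt8 and Krt18 was lower in BAP1 KO with a mean difference of -1.20 on the log2 scale, from -7.22 ± 0.11 to -8.43 ± 0.10 (SD, n = 4).

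**Figure D3:**
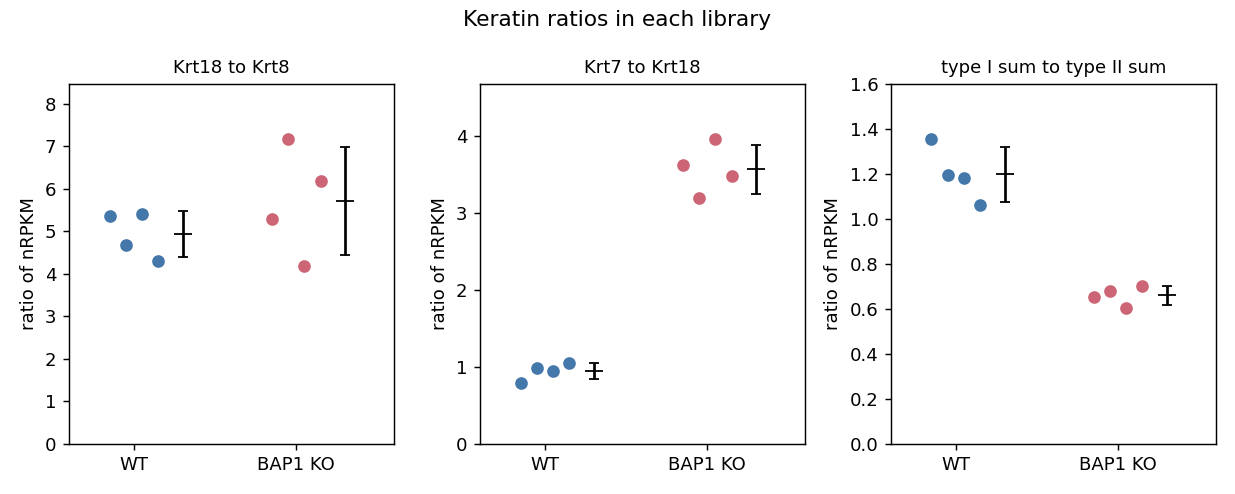
Ratios of nRPKM in each library for Krt18 to Krt8, Krt7 to Krt18, and the type I sum to the type II sum, with points for libraries, the mean with its SD, and linear axes from 0. The first ratio overlaps between genotypes, the second is 0.79 to 1.05 in WT and 3.20 to 3.97 in BAP1 KO, and the third, for the 8 keratins chosen, is 1.06 to 1.36 in WT and 0.60 to 0.70 in BAP1 KO.

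Few other keratins were detected. Of 46 other keratin genes in the files, 15 had no count in any library, 29 had at most 20 counts in their highest library, and 2 had more. Krt23, a type I keratin, fell from 6.86 ± 0.36 to 4.37 ± 0.13 CPM (SD, n = 4), a log2 fold change of -0.65 ± 0.06 (SE; edgeR adjusted p = 3.7e-10). Krt10, the keratin of suprabasal epidermis, stood at 1.41 and 1.39 CPM and did not pass. Of the 4 tested, Krt23 was the 1 that passed.

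Other intermediate filament genes moved both ways. Among 12 tested there were 5 rises and 6 falls, where 61.1% of all genes passed, and the median log2 fold change was -0.21 beside -0.0046 over all genes tested. Des, the desmin of muscle cells and the most abundant of them, fell from 1734 to 1509 CPM (-0.20 ± 0.02), close to the change of Vim. Nes, the nestin that co-polymerises with vimentin, fell from 196 to 99.4 CPM (-0.98 ± 0.03). The B-type lamins Lmnb1 and Lmnb2 fell (-0.52 ± 0.03 and -0.57 ± 0.04), and Synm, the synemin that links desmin and vimentin filaments to the membrane skeleton, rose by 0.68 ± 0.06. The A-type lamin Lmna, named after its value was seen, rose by 0.29 ± 0.03, to 512 CPM. The neuronal filament genes, all below 1 CPM in both genotypes, account for 3 of the 5 rises. Prph rose by 1.49 ± 0.18, Nefm by 0.80 ± 0.29 and Nefh by 0.87 ± 0.32, while Ina fell (-1.90 ± 0.32). In the genotype where each was lower, Nefm, Nefh and Ina stood at 0.18, 0.16 and 0.11 CPM, near the filter's 0.13 CPM. They may have been tested only because of the other genotype.

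**Figure D4:**
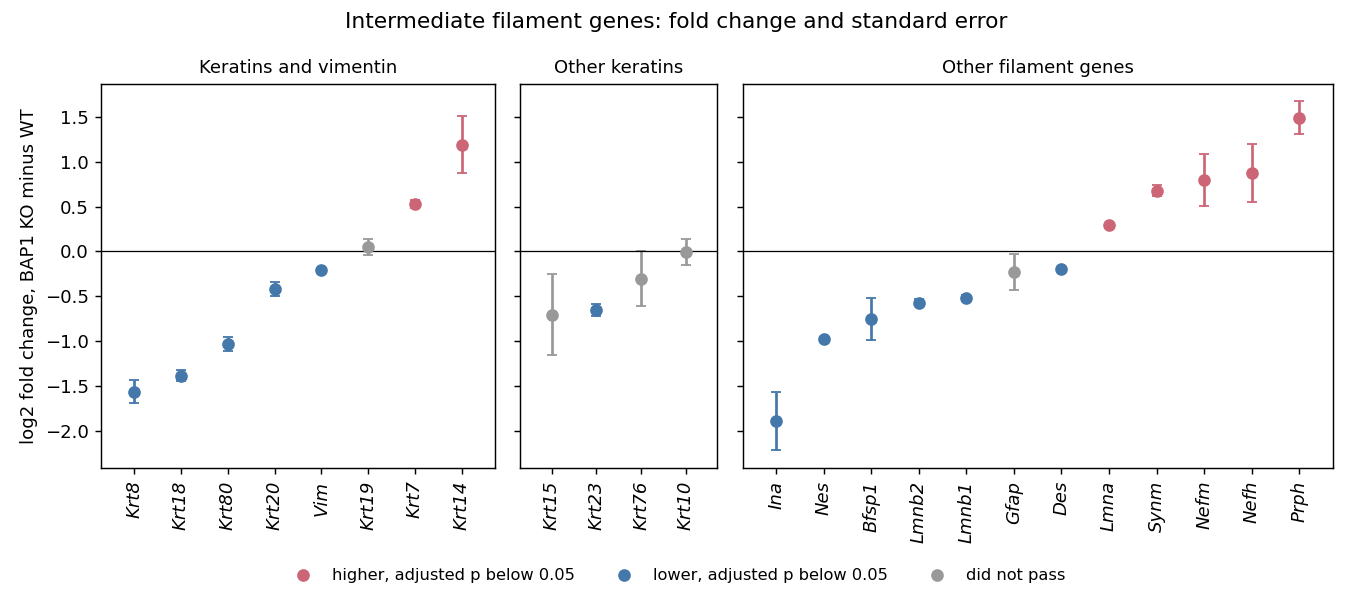
Log2 fold change (BAP1 KO minus WT) with its standard error for the tested keratins and Vim, the other tested keratins, and the other tested filament genes, coloured by whether the adjusted p was below 0.05. Krt8 and Krt18 lie lowest among the first group at -1.56 and -1.38, and Krt14, with the widest bar there, lies highest at 1.19.

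Genes whose proteins anchor or bind the filaments also moved both ways, with the large plakins among those that rose. The 16 tested plakins, desmosomal plaque and keratin-binding proteins gave 8 rises and 5 falls beside the same 61.1%, and their median log2 fold change was 0.22. Dst rose by 0.59 ± 0.02, Macf1 by 0.57 ± 0.02 and Plec, the plectin that crosslinks vimentin and keratin filaments, by 0.40 ± 0.02 from 434 CPM. Ppl, periplakin, rose by 0.70 ± 0.06 from 5.54 CPM. The 5 that fell, named after their values were seen, were the plaque proteins Jup (-0.15 ± 0.03 from 146 CPM), Pkp2 (-0.15 ± 0.04) and Pkp3 (-1.60 ± 0.25 from 0.63 CPM), the desmosomal cadherin Dsg2 (-1.14 ± 0.38 from 0.21 CPM) and the keratin-binding Tchp (-0.22 ± 0.07). Dsp, the desmoplakin that ties keratins to desmosomes, rose by 1.07 ± 0.33 at 0.13 and 0.28 CPM, on 4 to 26 counts per library. In the genotype where each was lower, Dsp and Dsg2 had means of 0.13 and 0.092 CPM, not above the filter's 0.13 CPM. They may have been tested only because of the other genotype. Among 14 regulators of epithelial genes, 6 had enough counts. Of these, 2 rose and 0 fell, beside 29.0% and 32.1% of all genes. Esrp2, an epithelial splicing factor, rose by 0.51 ± 0.05 and Klf4, a Krüppel-like factor, by 0.11 ± 0.04. Klf5, Grhl1, Ovol1 and Tfap2a did not pass. Grhl2, Ovol2 and Esrp1, which mark most keratin-rich epithelia, had at most 6 counts in any library.

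Markers of other cells also moved, and their part in the results was not tested. Each count of markers called stands beside the 61.1% of all genes that passed, 29.0% higher and 32.1% lower. Of 8 markers of other epithelia, 3 were tested and 2 of them fell, and their summed level went from 4.07 to 5.25 CPM in WT to 2.86 to 3.24 CPM in BAP1 KO. Without Spint1, a protease inhibitor that fell from 3.01 to 1.52 CPM, the other 7 summed to 1.28 to 1.996 CPM and to 1.37 to 1.63 CPM, which overlapped. Their defining members were near 0, with Epcam at 1 to 20 counts and Cldn4 at 0 to 6 counts per library. The 13 mesothelial markers summed to 1645 to 1674 CPM in WT and to 1632 to 1650 CPM in BAP1 KO, with 5 of 12 tested higher and 5 lower. All 7 fibroblast markers fell, from a sum of 13941 to 14920 CPM to 11434 to 11879 CPM. The 8 macrophage markers, with 4 higher and 4 lower, summed to 11849 to 12136 and to 14144 to 14642 CPM. Without Lyz2, which rose from 8388 to 11027 CPM, the other 7 macrophage markers summed to 3582 to 3624 CPM in WT and to 3395 to 3489 CPM in BAP1 KO. The 5 smooth muscle markers, a source of desmin, summed to 10172 to 10567 CPM in WT and to 10598 to 10798 CPM in BAP1 KO, with 3 higher. The 5 endothelial markers summed to 28.8 to 29.7 and to 18.4 to 19.5 CPM with 4 lower. The 5 adipocyte markers summed to 26.3 to 29.8 and to 41.0 to 43.7 CPM with 4 higher and Lep at 0. The 5 lymphocyte markers summed to 4.93 to 5.06 and to 2.99 to 3.35 CPM, with 1 higher and 1 lower of 4 tested. The marker that fell was Cd4, the most abundant of them in WT, from 3.27 to 1.14 CPM. Cd79a rose from 0.59 to 0.91 CPM, so the lower sum rests on Cd4.

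The genes with the most similar pattern were found by the root mean square difference of centred log2 CPM over the 8 libraries, among 12504 named genes. Nearest to Krt8 were Cacna1d, a calcium channel subunit, Acvrl1, a receptor of the TGF-beta family, and the imprinted gene Peg3, at 0.070, 0.10 and 0.11, with log2 fold changes of -1.46, -1.52 and -1.48. Nearest to Krt18 were Inpp1, an inositol phosphatase, Fcrl1 and Tnfsf13b, a ligand for B cells, at 0.073, 0.078 and 0.079, with log2 fold changes of -1.36, -1.28 and -1.37. Nearest to Vim were Pcolce, an enhancer of procollagen processing, H13 and Rhno1, at 0.013, 0.015 and 0.015. With 2 genotypes that differ in most genes, this measure sets side by side genes of similar fold change.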

How the data were processed

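The authors deposited whole-number counts of reads aligning uniquely to each gene model and, per the file headers, size-factor-adjusted RPKM (nRPKM). Per the labels' protocols, TruSeq RNA v2 libraries were sequenced as single-end 50 bp reads; per the submitters' processing notes, GSNAP and GRCm38 were used. No source used here gives the annotation or the strand setting of the counting. For the 11827 genes whose lowest library held 200 counts or more, deposited RPKM were the counts times 1 factor per gene and 1 factor per library.

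Entrez identifiers were named from RefSeq (GRCm38.p6, 31049) or GENCODE vM21 (77); 5402 had no symbol. Counts of all 8 libraries, 67.1 to 84.9 M each, were tested with edgeR 4.0.16 in R 4.3.3 (quasi-likelihood F test, robust dispersion, TMM factors, filterByExpr, Benjamini-Hochberg over 16929 genes, threshold 0.05), a script tested on simulated data. SE is the log2 fold change over the root of F. Single values had an exact permutation test. Levels between genes were compared as nRPKM. Alternatives were no filter on low counts, RLE factors, upper quartile factors, unscaled library totals, CPM above 1 in 4 libraries, DESeq2 1.42.0, limma-voom (limma 3.58.1) and each library left out. The labels name no batch or pairing. They give no replicate numbers either, and those used here follow the order of the samples within each genotype. The genes and the 12 lists were chosen with earlier results of these data known. Of each list, up to 4 genes with the smallest adjusted p that passed and the most abundant were named. Krt10, Lmna, Dsp, Dsc2, Evpl, Eppk1, Cdh1, Muc1, Cd4, Cd79a and the anchor genes that fell were named after their values were seen. So were the neuronal filament genes, the regulators that did not pass and those with few counts.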

Additional observations from a re-analysis of the deposited data

Results flagged for a closer look

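In 24 groups of 4 libraries, 2 held a library far from the other 3, and chance alone flags about 1 in 20 groups. Krt7 stood at 17.3 CPM in BAP1 KO replicate 1 and at 15.9 to 16.0 CPM in the other BAP1 KO libraries; without this library the log2 fold change was 0.50 in place of 0.53 and still passed the test. Krt5 was at 0 CPM in WT replicate 2 and at 0.039 to 0.044 CPM in the other WT libraries, a difference of 3 counts.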

How the results depend on the processing

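For the 8 tested genes of the 9 and the counts over all genes, direction where called and side of the threshold held in each alternative that gave a value. Over these, log2 fold changes ran from -1.65 to -1.49 for Krt8, -1.43 to -1.32 for Krt18, -1.08 to -1.002 for Krt80, -0.45 to -0.38 for Krt20, -0.23 to -0.19 for Vim, 0.50 to 0.55 for Krt7 and 0.99 to 1.37 for Krt14. With CPM above 1 in at least 4 libraries, Krt14 was no longer tested, leaving 1 higher among the keratins and Vim; 2 other filament genes were then higher, and 4 anchor genes higher and 3 lower, since fewer genes were tested. Leaving out 1 library gave 3 to 5 other filament genes higher, with 3 without WT replicate 2 or BAP1 KO replicate 1, and 1 to 2 regulators higher, with 1 without WT replicate 3 or BAP1 KO replicate 4; the cause was not tested. With Krt10 and Krt23 added to the type I sum, a choice made after seeing the data, the mean ratio of type I to type II went from 1.20 to 1.75 in WT and from 0.66 to 1.002 in BAP1 KO, since more genes were summed. No scaling moved the median of all genes by more than 0.1 on the log2 scale. No paired analysis was possible because the labels give no replicate numbers. Depth limits Krt5, Krt14 and Krt8.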
